A study of Mus musculus with 4 samples.

Results

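Chemokines and their receptors were examined in cells sorted from the trachea and the stomach of Tas2r143-reporter mice. The group was defined by gene symbol and took every protein-coding gene whose symbol began with Ccl, Cxcl, Ccr, Cxcr, Xcl, Xcr, Cx3c or Ackr and ended with a number. It held 57 genes of the 48709 lines of the expression table, of which 33 were ligands and 24 were receptors. Symbols that do not end in a number, such as Ccl21a, were outside this rule, and non-coding genes were left out.

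The mice carried a BAC transgene that placed the tamoxifen-inducible recombinase CreERT2 under the Tas2r143 promoter, together with the Rosa26 mT/mG reporter, on a C57BL/6 background. All groups shared both alleles and 5 days of tamoxifen, and cells were taken 5 days after the last injection. Recombined cells and their progeny show EGFP, and all other cells show membrane Tomato, so EGFP records past activity of the transgenic promoter in 1 transgenic line. EGFP-positive cells were sorted as EGFP+ and DAPI-, while Tomato-positive cells were sorted as Tomato+, EpCAM+, EGFP- and DAPI-, so a gate on EpCAM, a surface protein of epithelial cells, applied to the Tomato sort alone. Cells of 3 mice were pooled for each of the 4 libraries (trachea EGFP, trachea Tomato, stomach EGFP and stomach Tomato), which left 1 library a group and no replicate.

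The labels contradict themselves on tissue, since for each sample the title gives one and the tissue field the other, and the libraries are called here by their titles. Levels are given as normalized counts, whole numbers whose spacing is that of reads per gene multiplied by a value for each library. Cyp2f2, a gene of airway club cells, stood at 337775 normalized counts in the Tomato library titled trachea and 69 in the one titled stomach, whereas the gastric genes Pgc (chief cells) and Gkn1 (pit cells) were at 2 each in the former and at 992416 and 468388 in the latter. The sum over all genes was 9.98 to 15.43 M normalized counts a library, with 11522 to 16174 genes above 0. The spacing of the low values put 1 read at 1.61 normalized counts in the trachea EGFP library and at 0.786 to 0.816 in the other libraries. By this estimate, 6.2 M reads counted in genes lay behind the trachea EGFP library and 17.3 to 18.9 M behind the others. These are not the numbers of reads sequenced. A listed 0 allows a level of up to 3 reads, which is 4.83 normalized counts in the trachea EGFP library and 2.36 to 2.45 in the others. Tuft cell markers, such as Trpm5, Dclk1 and Pou2f3, were at least 4-fold higher in EGFP-positive cells for 12 of 12 genes in both tissues. They summed to 112593 normalized counts in trachea EGFP, 2745 in trachea Tomato, 135288 in stomach EGFP and 8584 in stomach Tomato.

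Chemokines are small secreted proteins that attract leukocytes along a gradient, and they are grouped as CC, CXC, XC and CX3C ligands by the spacing of their first cysteines. Their signalling receptors are G protein-coupled receptors that act mainly through Gi, whereas atypical receptors bind chemokines without G protein signalling and mostly take them up for degradation. In mucosal tissue, epithelial cells, macrophages and stromal cells make inflammatory ligands on stimulation through NF-kB, and tuft cells are rare chemosensory epithelial cells best known for the cytokine Il25 and for lipid mediators.

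The group as a whole stood lower in EGFP-positive cells of both tissues. In the trachea, its 57 genes summed to 1809 normalized counts for EGFP and 17014 for Tomato, and in the stomach to 2183 and 25806. The Tomato sums were thus 9.41-fold and 11.82-fold the EGFP sums. Per 1 M normalized counts of each library, the sums were 181.3, 1144.3, 160.2 and 1672.1 in trachea EGFP, trachea Tomato, stomach EGFP and stomach Tomato. The difference lay mostly in the ligands, which summed to 1183 and 14759 in the trachea and to 789 and 23294 in the stomach, in EGFP and Tomato respectively. Receptors summed to 626 and 2255 in the trachea and to 1394 and 2512 in the stomach. Signalling receptors of the trachea went the other way, with sums of 491 in EGFP and 261 in Tomato, while atypical receptors there summed to 135 and 1994. In the stomach these sums were 427 and 1041 for signalling receptors and 967 and 1471 for atypical receptors. In these bulk libraries, fewer cells of a kind and less RNA per cell cannot be told apart.

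Of the 57 genes, 45 were above 0 in at least 1 library, 32 reached 50 normalized counts in at least 1 library and 6 were above 0 in all 4. The 12 genes at 0 in every library were Ackr1, Ccl19, Ccl24, Ccl26, Ccr1l1, Ccr3, Ccr4, Ccr6, Ccr9, Cxcr1, Cxcr2 and Xcl1. A further 13 genes stayed under 50 everywhere, and the highest of them were Cxcl13 at 48 in trachea Tomato, Ccr2 at 44, Ccl25 at 38 and Xcr1 at 37 in stomach Tomato. The number of genes above 0 was 11 in trachea EGFP, 21 in trachea Tomato, 23 in stomach EGFP and 42 in stomach Tomato. Over all genes, 11522, 13555, 15163 and 16174 were above 0 in the same order. Trachea EGFP, with the fewest of both, also had the fewest estimated reads, 6.2 M against 17.3 to 18.9 M.

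Genes were called higher or lower in EGFP-positive cells when log2((EGFP + 1)/(Tomato + 1)) reached 2 in either direction, a 4-fold difference, provided that the larger value was 50 or more. This is a rule of size between single libraries and no test. In the trachea, 18 of the 57 genes reached this minimum, of which 3 were higher and 12 lower in EGFP-positive cells, where 25.2% of all 10523 genes at the minimum were higher and 32.4% lower. The median log2(EGFP/Tomato) was -7.50 over these 18 genes and -0.32 over all genes at the minimum. In the stomach, 30 genes reached the minimum, and 2 were higher and 23 lower, where 14.8% of all 11094 genes were higher and 22.4% lower. The median was -5.66 over the 30 genes and -0.15 over all genes. Rescaling all libraries to the same total would add 0.575 to log2(EGFP/Tomato) of well-expressed genes in the trachea and 0.179 in the stomach.

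Over both tissues, 11 genes were lower in EGFP-positive cells of trachea and stomach, namely Ackr3, Ccl3, Ccl4, Ccl5, Ccl6, Ccl20, Ccrl2, Cxcl2, Cxcl5, Cxcl16 and Cxcl17. Ackr4 was the 1 gene called higher in both. The share of all genes called lower, or higher, in both tissues was not counted, so no reading is drawn from these numbers. Cxcl1 was called higher in the trachea and lower in the stomach. Another 25 genes reached the minimum in neither tissue.

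**Figure D1:**
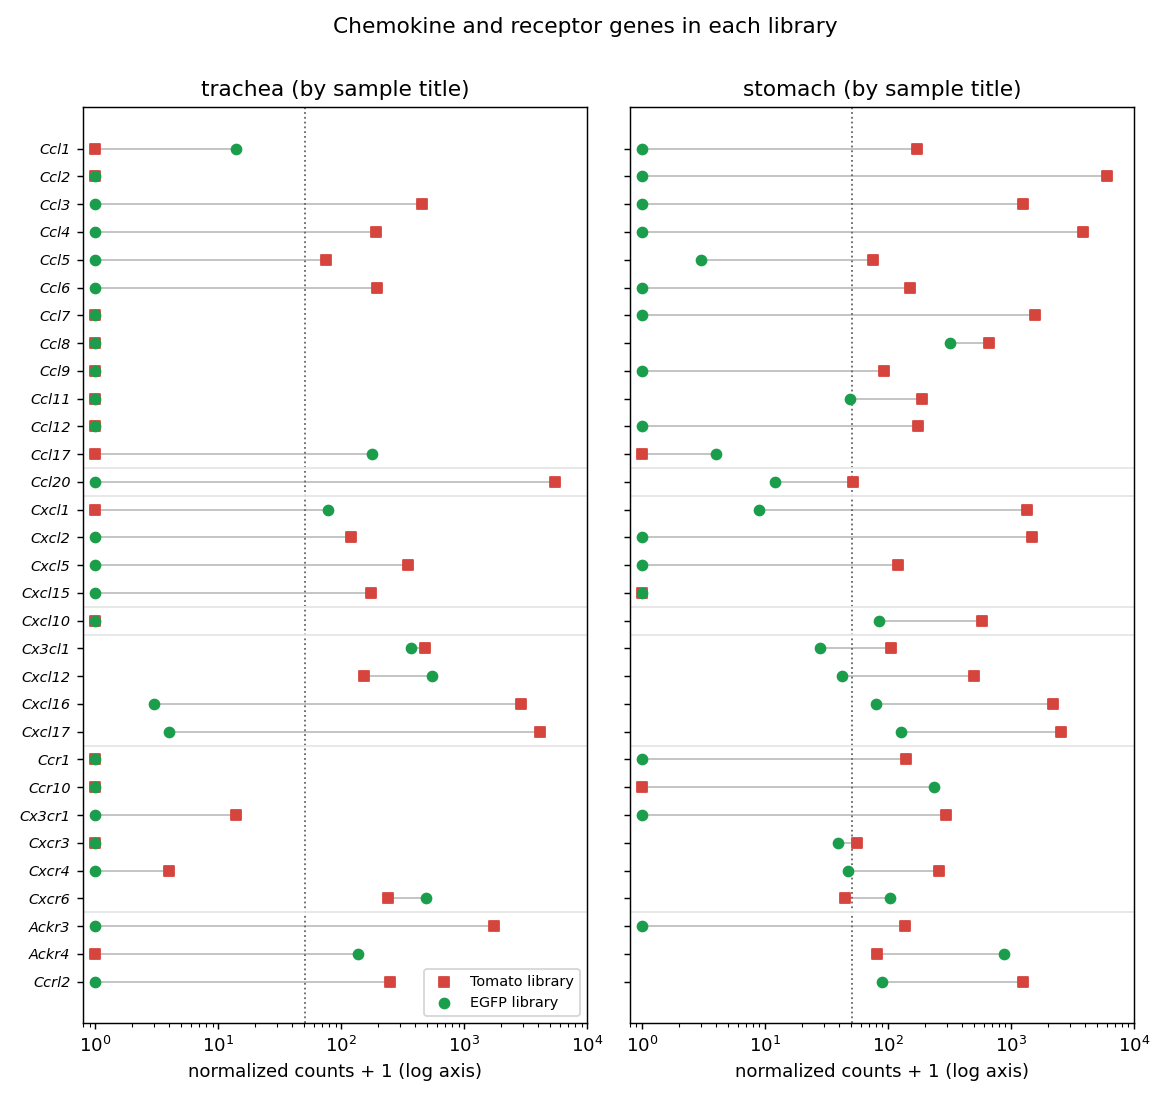
Normalized counts plus 1, on a log axis, of 31 chemokine and receptor genes that reached 50 in at least 1 library, with the EGFP library as green circles and the Tomato library as red squares, trachea on the left and stomach on the right. Each point is 1 library without replicate, the dotted line marks 50 normalized counts, and a circle covers the square where both stand at 0. In the stomach most circles lie to the left of their square, and in the trachea more lie to the left than to the right. Ackr4, Ccl17 and Cxcr6 lie to the right in both tissues.

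Among the inflammatory CC ligands, the monocyte attractants Ccl2, Ccl7 and Ccl12 were found in the stomach Tomato library alone. Ccl2 stood at 5987 normalized counts there, Ccl7 at 1580 and Ccl12 at 175, and all were at 0 in the other 3 libraries. By the limit of the exact binomial 95% interval, Ccl2 was at least 2064-fold lower in stomach EGFP, and Ccl7 at least 544-fold. Later folds given as at least a value are the same limit. Ccl8, a related monocyte attractant, differed from them and was also found in stomach EGFP-positive cells, with 0, 0, 317 and 659 normalized counts in trachea EGFP, trachea Tomato, stomach EGFP and stomach Tomato. Its stomach Tomato level was 2.08-fold the EGFP level (95% interval 1.84 to 2.35, exact binomial, counting error only), which did not reach the 4-fold rule. The eotaxin Ccl11, which attracts eosinophils, was at 0, 0, 48 and 188 in the same order, 3.91-fold higher in stomach Tomato (2.94 to 5.28). These ligands lie side by side on chromosome 11 of GRCm38 in the annotation GENCODE M21. Ccl2 starts at 82035571, followed by Ccl7 at 82045712, Ccl11 at 82057823, Ccl12 at 82101845 and Ccl8 at 82115185, which ends at 82116799. These 5 neighbours were listed at 0 in both trachea libraries.

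Ccl3, Ccl4 and Ccl5, which attract macrophages and T cells, were detected in Tomato-positive cells of both tissues. Ccl3 stood at 0 and 449 normalized counts in EGFP and Tomato of the trachea and at 0 and 1255 in the stomach. For Ccl4, the values were 0 and 189 in the trachea and 0 and 3869 in the stomach. Ccl5 was at 0 and 74 in the trachea and at 2 and 75 in the stomach. The EGFP libraries thus had at most 2 normalized counts of any of them. Ccl4 was at least 31.6-fold lower in EGFP-positive cells of the trachea and at least 1333.7-fold lower in those of the stomach. Ccl6, a ligand of Ccr1, stood at 0 and 195 in the trachea and at 0 and 149 in the stomach, while Ccl9, another ligand of Ccr1, was found in stomach Tomato alone, with 91. The segment of chromosome 11 that holds Ccl5, Ccl9, Ccl6, Ccl3 and Ccl4 extends from 83525778 to 83664683. Ccl1, which binds Ccr8, stood at 13, 0, 0 and 171 in trachea EGFP, trachea Tomato, stomach EGFP and stomach Tomato.

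Ccl17 was the CC ligand called higher in EGFP-positive cells. This ligand of Ccr4, a receptor of T helper cells, was at 176 normalized counts in trachea EGFP and 0 in trachea Tomato, at least 57.8-fold higher. In the stomach it was at 3 and 0, which are 4 reads against none. Its partner ligand Ccl22 reached 4 normalized counts in stomach Tomato and was at 0 elsewhere, and Ccr4 itself was at 0 in all libraries. Ccl17 lies on chromosome 8 from 94810453 to 94812036, downstream of Cx3cl1, which ends at 94782427.

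Of the mucosal CC ligands, Ccl20 reached 50. Ccl20 attracts Ccr6-positive lymphocytes and dendritic cells to epithelia, and it stood at 0 in trachea EGFP, 5491 in trachea Tomato, 11 in stomach EGFP and 51 in stomach Tomato. It was at least 924-fold lower in EGFP-positive cells of the trachea, and it alone gave 32.3% of the group's normalized counts in the trachea Tomato library. In the stomach it was 4.67-fold higher in Tomato (2.59 to 9.03), a call that ended when the libraries were rescaled to the same total. Ccl25, the ligand of Ccr9, stood at 2, 0, 33 and 38 and shares 204 exonic bases with the oppositely oriented Elavl1. Ccl28, a mucosal ligand of Ccr10, stood at 0, 4, 8 and 16.

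Of the 5 neutrophil-attracting CXC ligands, Cxcl2, Cxcl5 and Cxcl15 were called lower in trachea EGFP, and Cxcl1, Cxcl2 and Cxcl5 in stomach EGFP. Cxcl1 was called higher in trachea EGFP. The others were under the minimum, 1 in the trachea and 2 in the stomach. Of all genes at the minimum, 25.2% were higher and 32.4% lower in the trachea, and 14.8% and 22.4% in the stomach. Cxcl2 stood at 0 and 119 normalized counts in EGFP and Tomato of the trachea and at 0 and 1469 in the stomach. Cxcl5 was at 0 and 345 in the trachea and at 0 and 120 in the stomach. Cxcl15, known as an airway and lung chemokine, was at 172 in trachea Tomato and at 0 in the other 3 libraries. Cxcl1 went in opposite directions. It stood at 77 in trachea EGFP and 0 in trachea Tomato, at least 24.9-fold higher. In the stomach it was at 8 in EGFP and 1347 in Tomato, where the Tomato level was 171-fold the EGFP level (93.0 to 358). The trachea EGFP value of Cxcl1 rests on 48 reads. Cxcl3 was at 31 in stomach Tomato and 0 elsewhere.

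Windows of the 250 bases before the transcription start were searched for short motifs. Start sites and sequences are from RefSeq on GRCm38.p6, which held windows for 43 of the 57 genes. The motif searched was GGNNTTTCC, an NF-kB-type sequence, on both strands. It occurred in 10 of 47 windows of these 43 genes (21.3%) and in 4.93% of the 32851 windows of all genes. Its holders were Ackr4, Ccl9, Ccl20, Ccr3, Ccrl2, Cxcl1, Cxcl2, Cxcl3, Cxcl9 and Cxcl10. Cxcl5 and Cxcl15 were not among them. The holders thus included Ackr4, called higher in EGFP-positive cells of both tissues, and Ccr3, at 0 in all libraries. The TATA box TATAAA was in 14 of the 47 windows (29.8%) and in 12.37% of all windows, and the AP-1-type motif TGANTCA in 4 (8.5%) and in 6.75% of all. Matches to different motifs did not overlap in the windows of these genes. A match of letters is a description and shows no binding. The windows of Cxcl1 (chr5:90890995-90891244), Cxcl2 (chr5:90903649-90903898), Cxcl3 (chr5:90785851-90786100) and Ccl20 (chr1:83116516-83116765), all on the plus strand, are shown with matches to GGNNTTTCC or its reverse complement in capitals.
Cxcl1: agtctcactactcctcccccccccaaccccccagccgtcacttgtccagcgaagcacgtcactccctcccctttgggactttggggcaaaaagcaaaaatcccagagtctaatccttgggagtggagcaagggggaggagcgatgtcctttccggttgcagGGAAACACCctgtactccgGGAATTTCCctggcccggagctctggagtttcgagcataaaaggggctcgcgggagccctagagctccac
Cxcl2: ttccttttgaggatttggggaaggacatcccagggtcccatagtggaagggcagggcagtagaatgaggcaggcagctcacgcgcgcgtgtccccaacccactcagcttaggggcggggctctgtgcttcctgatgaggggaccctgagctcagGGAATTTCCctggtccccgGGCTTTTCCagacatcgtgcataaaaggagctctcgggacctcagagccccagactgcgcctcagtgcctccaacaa
Cxcl3: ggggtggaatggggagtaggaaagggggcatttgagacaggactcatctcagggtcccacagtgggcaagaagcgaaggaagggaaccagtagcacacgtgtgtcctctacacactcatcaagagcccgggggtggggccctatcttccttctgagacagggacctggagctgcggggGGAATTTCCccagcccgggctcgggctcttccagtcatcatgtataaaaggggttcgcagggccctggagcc
Ccl20: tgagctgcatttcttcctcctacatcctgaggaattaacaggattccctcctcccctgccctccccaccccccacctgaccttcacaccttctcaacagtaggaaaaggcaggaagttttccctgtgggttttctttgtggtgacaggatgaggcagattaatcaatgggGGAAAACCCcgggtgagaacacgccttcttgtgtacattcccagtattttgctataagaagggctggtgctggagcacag

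In Cxcl1 the matches began at 89 and 70 bases before the start, in Cxcl2 at 96 and 77, in Cxcl3 at 72 and in Ccl20 at 80. The 3 CXC ligands are neighbours on chromosome 5, in the segment from 90759360 to 90905938 that also holds Cxcl5 and Cxcl15. Their levels differed between libraries. Per kb of exon, stomach Tomato had 718 normalized counts of Cxcl1 and 710 of Cxcl2, while trachea Tomato had 0 of Cxcl1, 57.5 of Cxcl2 and 185 of Cxcl5. Ccl20 had 3864 per kb in trachea Tomato and 35.9 in stomach Tomato.

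Cxcl10, an interferon-induced ligand of Cxcr3, stood at 0, 0, 83 and 578 normalized counts in trachea EGFP, trachea Tomato, stomach EGFP and stomach Tomato, and was 6.93-fold higher in stomach Tomato (5.65 to 8.59). Its companion Cxcl9 was at 0, 2, 2 and 1. Cxcl10 shares 133 exonic bases with Art3 on the opposite strand, which was at 0, 106, 10 and 2, and reads that overlapped both genes were left out of the counts.

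Cxcl17 and Cxcl16 were abundant in Tomato-positive cells of both tissues. Cxcl17, a mucosal chemokine, stood at 3 and 4152 normalized counts in EGFP and Tomato of the trachea and at 127 and 2564 in the stomach. The Tomato level was 1289-fold the EGFP level in the trachea (357 to 10650), where the EGFP value rests on 2 reads, and 20.1-fold in the stomach (17.2 to 23.7). Cxcl16, a membrane-bound ligand of Cxcr6, stood at 2 and 2890 in the trachea, where EGFP had 1 read, and at 79 and 2214 in the stomach, 27.9-fold higher in Tomato (22.9 to 34.4). Cxcl16 shares 552 exonic bases with the oppositely oriented Zmynd15, which was at 0, 2, 0 and 79 in trachea EGFP, trachea Tomato, stomach EGFP and stomach Tomato. Between the Tomato libraries, trachea was 1.62-fold the stomach for Cxcl17 and 1.31-fold for Cxcl16. Per kb of exon, Cxcl17 reached 5456 in trachea Tomato and 3369 in stomach Tomato, and Cxcl16 reached 957 and 733. Both ligands therefore were near 0 in trachea EGFP and low in stomach EGFP.

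Cxcl12 and Cx3cl1 were present in both sorts of both tissues. Cxcl12, which binds Cxcr4 and Ackr3, stood at 541 normalized counts in trachea EGFP, 152 in trachea Tomato, 41 in stomach EGFP and 503 in stomach Tomato. The EGFP level was 3.56-fold the Tomato level in the trachea (2.97 to 4.27), short of the 4-fold rule but past it at the same library total, with a log2 ratio of 2.398. In the stomach the Tomato level was 12.3-fold the EGFP level (9.26 to 16.7). Cx3cl1, a membrane-anchored ligand of Cx3cr1, stood at 369, 477, 27 and 104. Its log2(EGFP/Tomato) in the trachea was -0.37 and turned to 0.20 at the same library total, so no direction is given. In the stomach Tomato exceeded EGFP 3.88-fold (2.64 to 5.84).

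**Figure D2:**
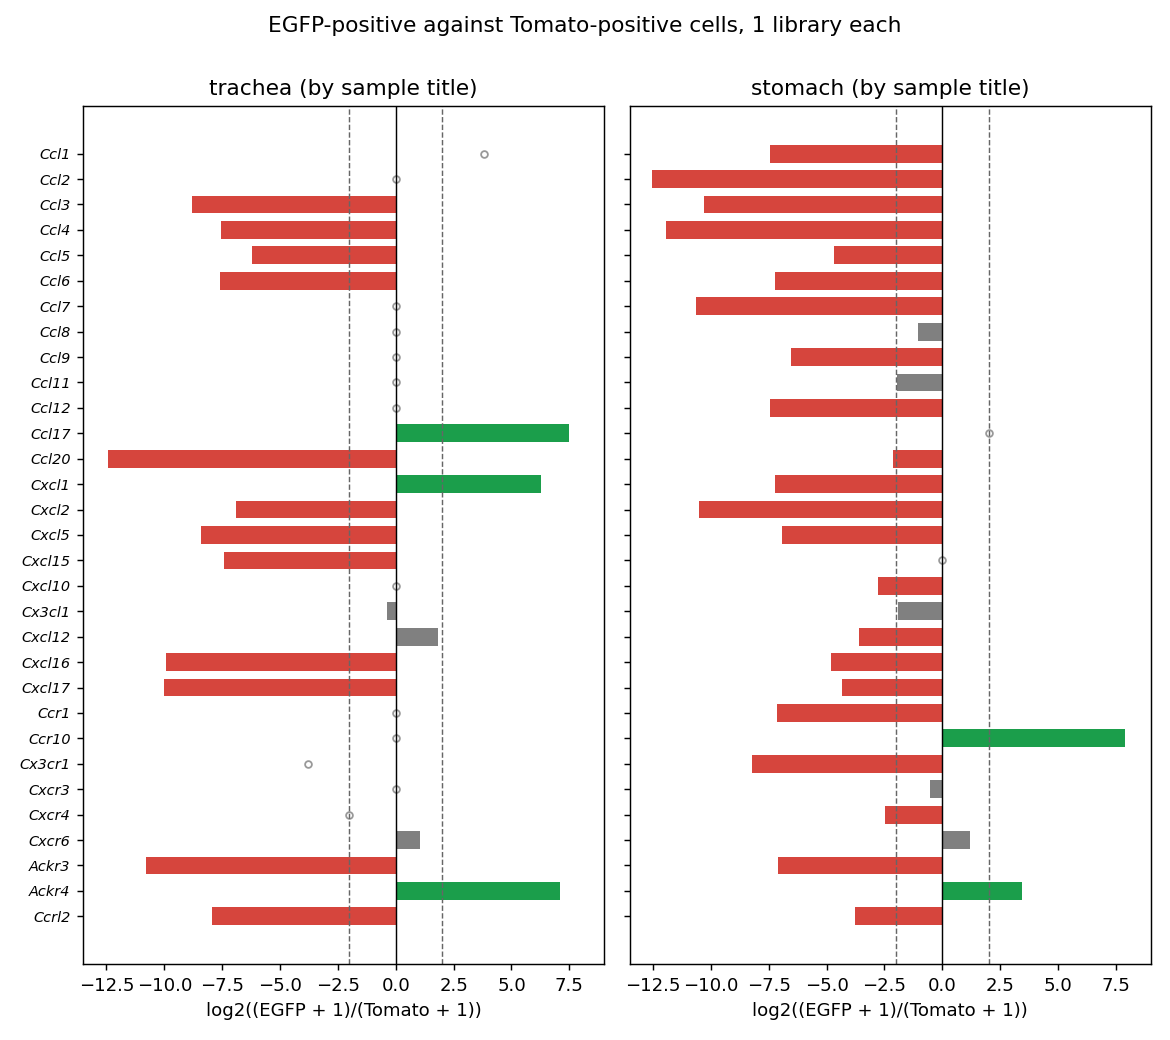
Log2((EGFP + 1)/(Tomato + 1)) of the same 31 genes in trachea and stomach, 1 library each. Bars are green where EGFP was higher and red where it was lower by the 4-fold rule (dashed lines), grey where neither held, and open circles mark genes under 50 normalized counts in both libraries. The longest red bars are Ccl20 in the trachea and Ccl2 in the stomach, and Cxcl1 points in opposite directions.

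Signalling receptors were sparse. Of 19 genes, 7 reached 50 normalized counts anywhere, and 7 were at 0 everywhere. Cxcr6, the receptor of Cxcl16 found on T cells and innate lymphoid cells, was the only one to reach 50 in the trachea, with 489 in EGFP and 239 in Tomato, against 102 and 44 in the stomach. EGFP was 2.05-fold Tomato in the trachea (1.74 to 2.42) and 2.32-fold in the stomach (1.68 to 3.25), so Cxcr6 was on the EGFP side in both tissues, below the 4-fold rule. In trachea EGFP it was at 253 per kb of exon, beside 0.662 for Cxcl16. Cxcr6 lies on chromosome 9 from 123806475 to 123811760 inside the span of Fyco1 on the opposite strand, with 0 shared exonic bases. Fyco1 itself was at 26, 513, 135 and 148 in trachea EGFP, trachea Tomato, stomach EGFP and stomach Tomato. Of 17 T and NK cell markers, 4 reached the minimum in the trachea, and 0 were higher and 3 lower in EGFP-positive cells. Trac stood at 0 and 1459 in EGFP and Tomato of the trachea, Gzmb at 0 and 616 and Trbc2 at 0 and 84, whereas Cd3g was at 98 and 36, and Cd3d and Cd3e, which define T cells, were at 0 in all 4 libraries. The part of these cells in the level of Cxcr6 was not tested.

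Ccr10 was found in stomach EGFP alone. This receptor, known on plasma cells that make IgA and home to mucosa, stood at 234 normalized counts there and at 0 in the other 3 libraries. Its stomach EGFP level was at least 77.3-fold higher than in stomach Tomato. Of the B and plasma cell markers, 10 reached the minimum in the stomach, 8 of them higher and 0 lower in EGFP-positive cells. Of all genes, 14.8% were higher and 22.4% lower. Igha stood at 669648 in stomach EGFP and 32337 in stomach Tomato, and Jchain at 149752 and 8479. On the Tomato side were Sdc1, at 499 and 1023, and Tnfrsf13c, at 42 and 61. In the trachea, where Ccr10 was at 0, 5 of 7 such markers at the minimum were higher in EGFP and 2 lower. Of all genes at the minimum there, 25.2% were higher and 32.4% lower. Igha was at 11389 and 3 in EGFP and Tomato of the trachea, and the 2 lower genes were Ighm, at 2 and 580, and Sdc1, at 0 and 5642. The list of 13 such markers summed to 31003, 7189, 1396244 and 70597 in trachea EGFP, trachea Tomato, stomach EGFP and stomach Tomato, with 11 genes above 0 in stomach EGFP and Ms4a1 at 0 in all libraries. Of all normalized counts in stomach EGFP, 12.87% were from immunoglobulin genes and Jchain, against 0.023% to 0.549% in the other libraries. The part of these cells in the level of Ccr10 was not tested.

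Ccr1, Cx3cr1 and Cxcr4 were called lower in stomach EGFP, and Cxcr3 was not called. Cx3cr1, which marks macrophages, was at 0, 13, 0 and 298 normalized counts in trachea EGFP, trachea Tomato, stomach EGFP and stomach Tomato. Ccr1, a receptor of Ccl3, Ccl6 and Ccl9, stood at 139 in stomach Tomato and at 0 elsewhere. Cxcr4 was at 0, 3, 46 and 257, 5.54-fold higher in stomach Tomato (4.19 to 7.45). Cxcr3 was at 0, 0, 38 and 55, with a Tomato to EGFP ratio of 1.45 in the stomach whose interval, 0.986 to 2.15, includes no difference.

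Atypical receptors held the gene called higher in EGFP-positive cells of both tissues. Ackr4, which takes up Ccl19, Ccl21 and Ccl25, stood at 135 normalized counts in trachea EGFP, 0 in trachea Tomato, 878 in stomach EGFP and 80 in stomach Tomato. It was at least 44.3-fold higher in EGFP in the trachea and 11.0-fold in the stomach (8.92 to 13.6). Ackr4 gave 40.2% of the group's normalized counts in stomach EGFP. None of its ligands was called higher in EGFP: Ccl19 was at 0 in all libraries, Ccl21a at 0, 2626, 0 and 82, and Ccl25 at 2, 0, 33 and 38. The gene lies on the minus strand of chromosome 9 from 104084157 to 104126933 and shares 479 exonic bases with Acad11 on the opposite strand. Counting without strand cannot tell reads of the partners apart where only 1 of them is annotated, and Acad11 stood at 161, 97, 109 and 144 in the same order. Its part in the Ackr4 values was not tested. Ackr3, which takes up Cxcl12, showed the reverse pattern, with 0 and 1748 in EGFP and Tomato of the trachea and 0 and 137 in the stomach. It was at least 294-fold lower in EGFP in the trachea and at least 46.76-fold in the stomach. Ccrl2, which binds the attractant chemerin, stood at 0 and 246 in the trachea and at 89 and 1240 in the stomach, where Tomato was 13.96-fold higher (11.5 to 17.1).

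Between tissues, the small set present in EGFP-positive cells differed. These comparisons use the same libraries as those above. Of the 12 genes that reached 50 in either EGFP library, 5 were higher in the trachea and 7 in the stomach by the same rule, where 19.8% of all 10337 genes were higher in the trachea and 28.3% in the stomach. Ccl17, Cx3cl1, Cxcl1, Cxcl12 and Cxcr6 were on the tracheal side, and Ackr4, Ccl8, Ccr10, Ccrl2, Cxcl10, Cxcl16 and Cxcl17 on the gastric side. Among Tomato libraries, 5 of 30 genes were higher in the trachea (Ackr3, Ccl20, Cx3cl1, Cxcl15 and Cxcr6) and 18 in the stomach, where 20.3% and 27.9% of all 11338 genes were. On the tracheal side, Ccl20 had 107-fold the level of stomach Tomato, and Cxcl15, at 0 in stomach Tomato, was at least 56.75-fold higher.

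All 4 libraries were also fitted together with limma, with tissue as a term, which leaves 1 residual degree of freedom and takes the tissues as pairs. That residual is the difference of the EGFP effect between the tissues and not a spread between replicates. The SE of each gene was drawn toward a trend over all genes tested, so the p-values do not rest on replication of the gene itself. Of 32 genes of the group tested, 0 were higher and 3 lower in EGFP-positive cells at an adjusted p of 0.05, where 0.929% of all 13023 genes tested were higher and 1.41% lower. The log2 change was -7.17 for Cxcl17 (SE 1.4997, limma adjusted p = 0.000292), -7.35 for Cxcl16 (SE 1.65, limma adjusted p = 0.00102) and -9.74 for Ccl4 (SE 2.96, limma adjusted p = 0.0441). At an unadjusted p under 0.05, 1 gene was higher and 10 were lower of the 32, where 11% of all genes tested were below it in either direction. The higher gene was Ackr4, with a log2 change of 5.26 (SE 2.46, limma adjusted p = 0.365), so its position on the EGFP side of both tissues did not pass the test. The 3 calls fell to 0 without the mean-variance trend, without the tissue term or with a pseudocount of 0.1.

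Genes around the chemokine system were taken from lists. Of the signalling genes downstream of chemokine receptors, 26 of 34 reached the minimum in the trachea, 7 of them higher and 7 lower in EGFP-positive cells, with a median log2 ratio of 0.03, and 29 in the stomach, 9 higher and 5 lower, with a median of 1.13. Over all genes at the minimum, 25.2% were higher and 32.4% lower in the trachea, and 14.8% and 22.4% in the stomach. The exchange factor Vav1 stood at 6787 and 350 normalized counts in EGFP and Tomato of the trachea and at 7021 and 668 in the stomach, and the phosphoinositide 3-kinase subunit Pik3r5 at 3240 and 74 and at 5147 and 384. Vav1 and Pik3r5 were thus on the EGFP side in both tissues. The kinases Fgr and Ptk2b changed sides, with Fgr at 0 and 81 in the trachea and 44 and 0 in the stomach, and Ptk2b at 0 and 68 and at 1036 and 123. The arrestin Arrb1, which uncouples receptors from G proteins, was at 52 and 0 in the trachea and at 164 and 273 in the stomach. Arrb2 was found in stomach Tomato alone, with 127, and the Rac activator Prex1 was at 0 and 1 in the trachea and at 7 and 379 in the stomach. Several of these genes also act outside chemokine signalling.

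Regulators and cytokine receptors that induce chemokines were mixed. In the trachea 2 of 19 at the minimum were higher in EGFP-positive cells and 5 lower, with a median log2 ratio of -0.95, where 25.2% and 32.4% of all genes were. In the stomach 2 of 25 were higher and 8 lower, with a median of -1.31, where 14.8% and 22.4% of all genes were. Il17rb, a subunit of the receptor for the tuft cell cytokine Il25, stood at 985 and 0 normalized counts in EGFP and Tomato of the trachea and at 819 and 48 in the stomach. The interleukin-1 receptor Il1r1 was on the other side, with 0 and 4826 in the trachea and 530 and 2712 in the stomach. Nfkb1, a subunit of NF-kB, was at 2 and 2617 in the trachea but at 278 and 131 in the stomach. Nfkbie, Bcl3 and Tnfaip3, which restrain or modify NF-kB, were lower in stomach EGFP. Nfkbie was at 0 and 249 in the stomach against 367 and 322 in the trachea, Bcl3 at 0 and 107 against 43 and 88, and Tnfaip3 at 4 and 257 against 0 in both trachea libraries.

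Of 11 genes that process or present chemokines, 3 of 8 at the minimum in the trachea were lower in EGFP-positive cells and 4 of 9 in the stomach, and 0 were higher, with medians of -1.49 and -1.74. Of all genes, 32.4% were lower in the trachea and 22.4% in the stomach. Sdc1, a heparan sulfate proteoglycan, stood at 0 and 5642 normalized counts in EGFP and Tomato of the trachea and at 499 and 1023 in the stomach. Mmp9, a protease that trims chemokines, was at 0 and 726 in the trachea and at 0 and 25 in the stomach. The related proteases Mmp2 and Mmp12 were at 1 and 300 and at 0 and 138 in the stomach. Among 9 chemokine and related genes whose symbols the rule left out, 3 of 6 at the minimum were lower in the trachea and 3 of 5 in the stomach. Of these 9, 0 were higher, and the medians were -3.65 and -2.24. The lower genes included Cmtm3, which is not itself a chemokine, at 0 and 107 in the trachea and at 68 and 325 in the stomach. Pf4, known as platelet factor, stood at 0 and 138 in the trachea and at 1 and 554 in the stomach.

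**Figure D3:**
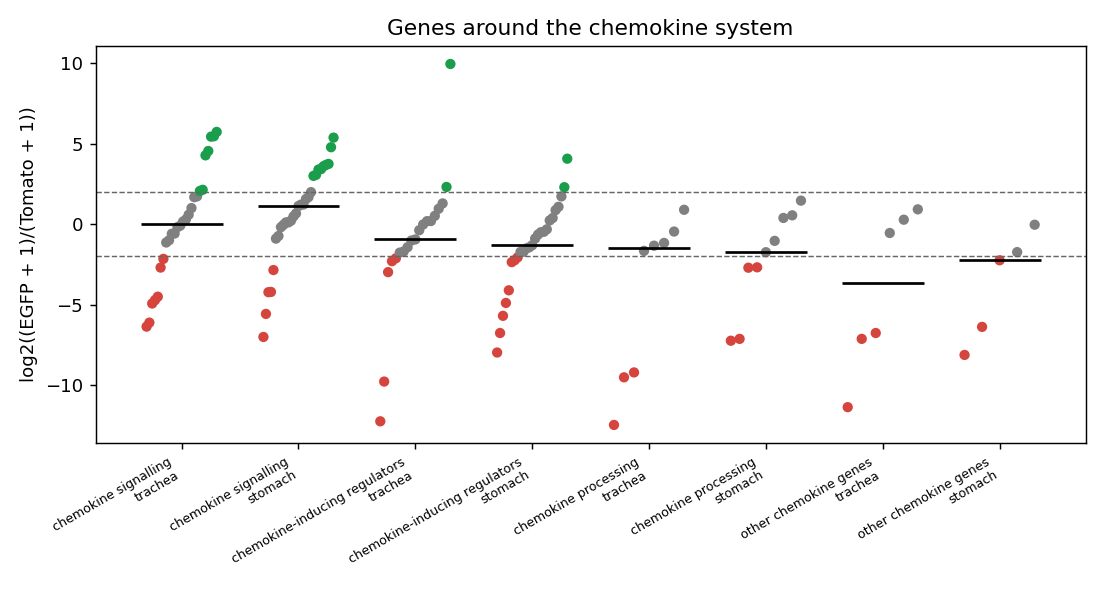
Log2((EGFP + 1)/(Tomato + 1)) of genes at 50 or more normalized counts in lists around the chemokine system, in trachea and stomach, 1 library each. Each point is a gene, green or red past the 4-fold lines (dashed), and black bars are medians, which lie at 0.03 and 1.13 for signalling genes and below 0 for the other lists.

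Myeloid and fibroblast markers were mostly lower in EGFP-positive cells, whereas the B and plasma cell markers described above were mostly higher. Of 17 myeloid markers, 14 reached the minimum in each tissue, and 13 of them were lower in EGFP-positive cells of the trachea and 13 in those of the stomach. Of all genes at the minimum, 32.4% were lower in the trachea and 22.4% in the stomach. The myeloid markers summed to 1229 normalized counts in trachea EGFP, 69153 in trachea Tomato, 2390 in stomach EGFP and 38949 in stomach Tomato. Of the trachea Tomato sum, Lyz2 gave 35491, H2-Ab1 10812 and H2-Aa 8389, whereas Csf1r gave 176. The largest part of the stomach Tomato sum was H2-Ab1 with 8231. The macrophage genes C1qa, C1qb, C1qc, Tyrobp, Fcer1g and Csf1r were at 0 in both EGFP libraries, and C1qb stood at 542 in trachea Tomato and 4611 in stomach Tomato. Adgre1 was at 908 in stomach Tomato and 0 elsewhere. Of 8 fibroblast markers, 7 were lower in trachea EGFP and 8 in stomach EGFP, with sums of 596, 26149, 263 and 26705 in trachea EGFP, trachea Tomato, stomach EGFP and stomach Tomato. The Tomato libraries thus held transcripts known from myeloid cells and fibroblasts although the sort was gated on EpCAM, and their part in the chemokine levels was not tested.

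Mast cell markers summed to 784, 586, 323 and 7335 in the same order, but Kit alone gave 784 of the trachea EGFP sum and 322 of the stomach EGFP sum. Of the markers at the minimum, 3 of 4 were lower in trachea EGFP and 7 of 8 in stomach EGFP, and 10 of 10 were above 0 in stomach Tomato, where Mcpt2 stood at 2435. Neutrophil markers, 7 in number, summed to 0, 15, 0 and 151, with S100a9, Ly6g, Mpo and Elane at 0 in all libraries. T and NK cell markers summed to 98, 2195, 6 and 78. Endothelial markers, 8 in number, summed to 260, 3759, 968 and 566, where Tek gave 258 of the trachea EGFP sum, and Tek with 498 and Emcn with 410 most of the stomach EGFP sum. In the stomach 1 of 5 at the minimum was higher in EGFP and 3 were lower, with a median log2 ratio of -3.45. The epithelial gene Epcam was at 5871, 1450, 4648 and 1751, so that it was present in every library.

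**Figure D4:**
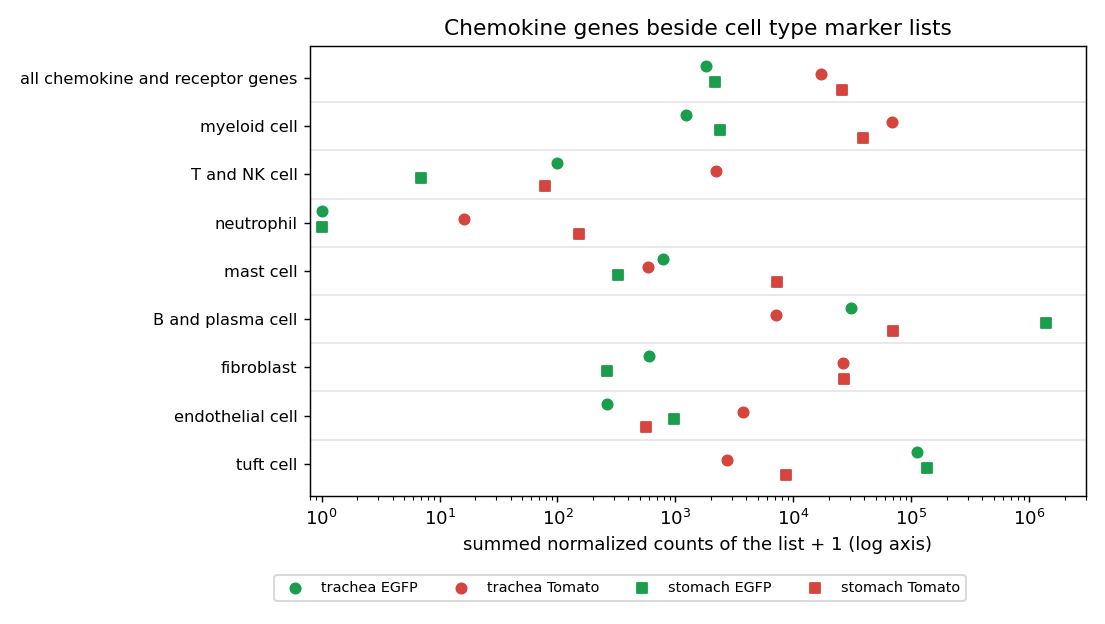
Summed normalized counts plus 1, on a log axis, of the 57 chemokine and receptor genes and of cell type marker lists, with the EGFP libraries in green, the Tomato libraries in red, circles for the trachea and squares for the stomach. Each point is 1 library. The chemokine group, myeloid and fibroblast lists stand higher in both Tomato libraries, and the tuft cell list and the B and plasma cell list in both EGFP libraries.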

How the data were processed

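RNA-seq was performed on 4 libraries of sorted cells, each pooled from 3 mice, after PCR amplification of full-length cDNA without molecular identifiers or strand. After trimming with Reaper, the authors used STAR 2.4.0a for alignment to GRCm38 and counted reads in exons per gene with featureCounts 1.4.5-p1, and reads of several genes or places were left out. The deposited signal is a whole number per gene in a table named as normalized counts. The authors' normalization was not given in the sources used here, and the spacing of low values is that of reads scaled by a factor per library and rounded.

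For the 116 symbols on more than 1 line, the line of the largest sum was kept. Ratios were log2 of normalized counts plus a pseudocount of 1, and the call rule was 4-fold with a minimum of 50. Ratios of single genes carry exact binomial 95% intervals on estimated reads, with a floor of 3 reads. Intervals and floors cover counting error only. limma 3.58.1 in R 4.3.3 (eBayes with trend, tissue as a term, Benjamini-Hochberg over all genes tested) was fitted to log2 values of genes that reached 50 in any library, and was tested on simulated data. The naming rule took every chemokine or receptor gene that reached 50 in any library, and up to 4 genes of a list with the largest ratios. Some genes that it took are counted but not reported here. Vav1, Pik3r5 and the cell type markers were named after their values were seen. The genes and lists were chosen with earlier results of these data known. Other pseudocounts, scalings, minimums and folds were tried. Gene positions are those of GENCODE M21 on GRCm38.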

Additional observations from a re-analysis of the deposited data

Results flagged for a closer look

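Cxcl1 and Cxcl12 moved in opposite directions in the tissues, and with 1 library a group these differences were not tested. The log2(EGFP/Tomato) of Cxcl1 was 6.29 in the trachea and -7.23 in the stomach. That of Cxcl12 was 1.82 in the trachea and -3.58 in the stomach.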

How the results depend on the processing

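No paired analysis was possible because the groups share only 1 replicate number, apart from the tissue term of the limma fit, and leaving out a library leaves no residual degree of freedom. With a minimum of 500 normalized counts, 0 genes were higher and 4 lower in EGFP-positive cells of the trachea, and 1 higher and 11 lower in those of the stomach. Between tissues, that minimum left 1 higher and 1 lower gene in the trachea among EGFP libraries, and 2 higher and 8 lower among Tomato libraries. With no minimum, 13 genes were lower in the trachea among EGFP libraries. A 2-fold rule called 5 genes higher in EGFP in the trachea, and an 8-fold rule called 3 genes higher in the trachea among Tomato libraries. The shares of all genes called at these minimums and folds were not counted, so no reading is drawn from these numbers. The limma calls numbered 0 with a pseudocount of 0.1, without the trend and without the tissue term, and 4 with a pseudocount of 10 or a minimum of 10. Under other pseudocounts and scalings, 15 of 15 called genes of the trachea kept their call, and 24 of 25 of the stomach, where Ccl20 lost it. Estimated reads counted in genes were fewest in the trachea EGFP library, at 6.2 M, which limits it most.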
